A study of Mus musculus with 5 samples.

Results

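The promoters of 10 genes of meiotic cohesin and meiotic recombination (Stag3, Smc1b, Rec8, Spo11, Dmc1, Spata22, Hormad1, Hormad2, Msh4 and Msh5) were examined for binding of Pcgf6 in mouse embryonic stem cells (ESCs), among 22359 protein-coding promoters in all. The 10 genes were taken from a named list and read as the depth within 2 kb of the transcription start site (TSS) over that of the input. They were chosen by their function with these same ChIP-to-input depths already known, so their excess over the input is given below as a description and carries no test. Binding was measured by ChIP-seq, in which an antibody retrieves the DNA that a protein occupies in fixed chromatin and this DNA is sequenced.

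Pcgf6 belongs to the Polycomb group proteins, chromatin regulators best known for keeping genes silent, and it is the subunit that defines one of the variant Polycomb repressive complexes. That complex is known to carry DNA-binding partners that read the E-box and E2F-type sites, and genes of the germ line are among its known targets in ESCs. In meiosis, homologous chromosomes are held along a protein axis built on a meiotic form of cohesin, cut by a programmed nuclease, and joined again through repair with the partner chromosome. Most of the proteins for these steps are made in germ cells, and many have paralogs that serve dividing body cells, which gives a natural counterpart to compare with.

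All libraries came from CCE cells, an established mouse ESC line, grown at low passage in serum with LIF and fixed with disuccinimidyl glutarate and paraformaldehyde. The labels name no genetic change and no treatment, and the groups differed only in the pull-down: input DNA with no antibody (1 library), a Santa Cruz antibody to Pcgf6 (2 replicates) and an Abcam antibody to Pcgf6 (2 replicates). No library of unspecific antibody and none of Pcgf6-depleted cells was analysed here, so the input is the only background. The authors deposited the depth at each base of reads extended to 300 bp, from which 22813494 fragments were recovered in the input, 2290161 and 2300080 in the Santa Cruz replicates and 2761667 and 2850508 in the Abcam replicates. Both replicates of an antibody carried mostly the same fragments and differed by less than the sampling noise (chi-square per degree of freedom over 10 kb windows, 0.120 within Santa Cruz, 0.132 within Abcam and 1.01 across the antibodies). They were therefore joined and counted as 1 sample, which leaves no independent replicates, no SD and only counting error behind each interval.

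Fragments of Pcgf6 ChIP exceeded the input at most of these promoters and with both antibodies. Together the 10 promoters held 183 Santa Cruz fragments, 232 Abcam fragments and 720 input fragments, a ratio to the input (scaled by the library totals) of 2.21 with Santa Cruz (exact Clopper-Pearson 95% interval, 1.87 to 2.60) and of 2.27 with Abcam (1.95 to 2.64). The ratio was over 1 at 9 of the 10 with Santa Cruz and at 8 with Abcam. Over all 22359 promoters it was over 1 at 8826 with Santa Cruz and at 9658 with Abcam. The median of the 10 ratios was 2.22 with Santa Cruz and 2.42 with Abcam. Over all promoters with input fragments, the median was 0.899 and 0.940. The 3.45% of promoters with no input fragment have no ratio, and they were not counted as over 1. In the deposited depth, scaled by the depth sum of each file, the 10 promoters together stood at 2.22 and 2.20 times the input in the Santa Cruz replicates and at 2.20 and 2.28 times in the Abcam replicates.

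A promoter was counted as past the threshold at an adjusted p under 0.05 (one-sided exact binomial test of ChIP against input fragments, adjusted after Benjamini and Hochberg over all promoters). Stag3, Smc1b, Spata22 and Msh4 were past it with Santa Cruz, 4 of 10 where the share over all promoters was 0.635%. The same 4 and Hormad1 were past it with Abcam, 5 of 10 where the share over all promoters was 1.09%. With both antibodies, 4 of 10 were past it and 0.474% of all promoters. These shares belong to the contrast by which the genes were chosen and are not evidence about them. With Santa Cruz, Smc1b and Spata22 were no longer past it with a window of 3 kb on each side, and none of the 4 was with 10 kb, while with Abcam Stag3 and Smc1b were lost with 10 kb. Rec8, Spo11, Dmc1, Hormad2 and Msh5 were past it with neither antibody. In simulated data of this depth, 200 promoters at a time were enriched by the same fold and all others left at the input level. Promoters made 2-fold enriched passed in 4% (Santa Cruz) and 11.5% (Abcam) of cases and promoters made 3-fold enriched in 61% and 66%. The adjusted threshold depends on how many promoters pass, so these shares need not hold for the libraries themselves. A promoter that did not pass is therefore read by its interval, which includes 2-fold with both antibodies at Spo11, Dmc1 and Msh5, with Santa Cruz alone at Hormad2, and with neither at Rec8.

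**Figure D1:**
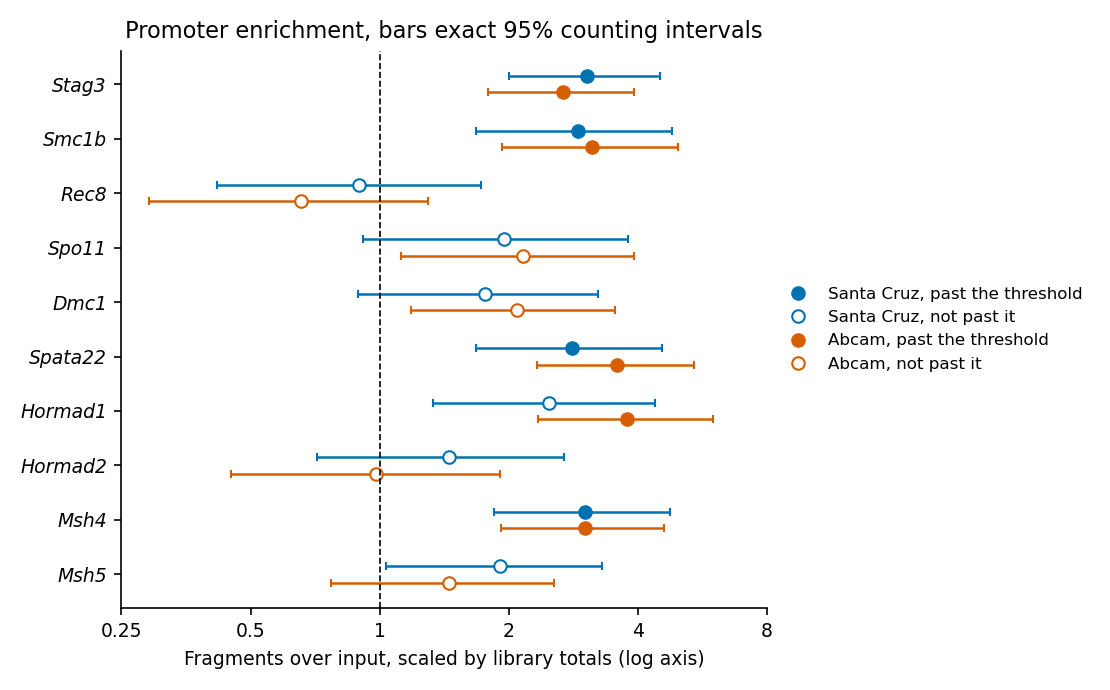
Fragments within 2 kb of the TSS over those of the input (horizontal log axis, scaled by library totals) for each of the 10 genes, in blue for Santa Cruz and in orange for Abcam, with bars for exact 95% intervals from counting error and filled points for promoters past the threshold. Stag3, Smc1b, Spata22 and Msh4 carry filled points for both antibodies between 2.68 and 3.57, Hormad1 for Abcam at 3.78, and Rec8 lies below the dashed line of no enrichment with both.

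The sequences next to the TSS are shown for the 5 genes past the threshold with either antibody. Peaks of both antibodies covered the TSS at each of them. Spo11, whose TSS was covered by an Abcam peak only, is not shown. Each run covers 140 bases before to 29 bases after the TSS on the strand of the gene, read from NCBIM37 (mm9), with CACGTG (the canonical E-box) and GGCGGGAA (a site of the E2F6 type) in capitals wherever they occur on either strand. The runs lie at chr5:138721328-138721497 (plus strand) for Stag3, chr15:84962358-84962527 (minus strand) for Smc1b, chr11:73143103-73143272 (plus strand) for Spata22, chr3:95363460-95363629 (plus strand) for Hormad1 and chr3:153569073-153569242 (minus strand) for Msh4.
Stag3: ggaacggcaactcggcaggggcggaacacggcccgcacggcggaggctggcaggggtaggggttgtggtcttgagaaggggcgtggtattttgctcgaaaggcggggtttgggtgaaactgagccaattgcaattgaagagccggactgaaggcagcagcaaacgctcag
Smc1b: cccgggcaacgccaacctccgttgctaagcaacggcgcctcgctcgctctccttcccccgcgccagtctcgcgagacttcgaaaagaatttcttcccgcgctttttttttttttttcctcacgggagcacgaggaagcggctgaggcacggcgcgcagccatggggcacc
Spata22: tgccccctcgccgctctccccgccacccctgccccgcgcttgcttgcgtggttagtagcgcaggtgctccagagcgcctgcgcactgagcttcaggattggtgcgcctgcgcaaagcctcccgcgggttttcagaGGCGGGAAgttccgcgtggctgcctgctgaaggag
Hormad1: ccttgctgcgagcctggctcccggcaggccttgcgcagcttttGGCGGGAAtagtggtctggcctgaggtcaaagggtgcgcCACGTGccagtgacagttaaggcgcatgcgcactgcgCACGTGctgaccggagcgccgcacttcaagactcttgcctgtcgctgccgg
Msh4: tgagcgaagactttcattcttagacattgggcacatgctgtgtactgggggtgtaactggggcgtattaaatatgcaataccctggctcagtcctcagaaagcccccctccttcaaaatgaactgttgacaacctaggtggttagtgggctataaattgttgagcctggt

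Distances are counted from the TSS to the first base of a motif in the direction of the gene. Hormad1 held the most motifs, with a GGCGGGAA 97 bases upstream of the TSS and E-boxes 58 and 21 bases upstream. Spata22 held a GGCGGGAA 5 bases upstream, so that the site runs over the TSS itself. The run of Smc1b held neither motif but 20 CpG dinucleotides, and the run of Msh4 held neither motif and 2 CpG dinucleotides. Stag3 and Msh4 each had an E-box further downstream, 99 and 65 bases after the TSS, and Msh5 a GGCGGGAA 57 bases after it and another 151 bases before it. These downstream sites are shown in 30 bases each, at chr5:138721555-138721584 (plus strand), chr3:153569020-153569049 (minus strand) and chr17:35183615-35183644 (minus strand).
Stag3: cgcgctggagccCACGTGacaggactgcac
Msh4: agcttccagaatCACGTGatgagaataaac
Msh5: gtgacggaaaaGGCGGGAAagtgctgcgaa

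In the 300 bases from 250 before to 49 after the TSS, an E-box was found at 1 of the 10 promoters and at 7.70% of all promoters, and GGCGGGAA at 3 of the 10 and at 2.80% of all. In 1 kb centred on the TSS, an E-box was found at 3 of the 10 (Stag3, Hormad1 and Msh4) and at 16.8% of all, and GGCGGGAA at 3 of the 10 (Spata22, Hormad1 and Msh5) and at 7.07% of all. Neither motif lay in this centred 1 kb window at Smc1b, Rec8, Spo11, Dmc1 or Hormad2, of which Smc1b was past the threshold with both antibodies. No E-box overlapped a GGCGGGAA at these promoters, and a match is a description of the sequence and not a measured site. The observed over expected CpG of the 300 bases had a median of 0.671 over the 10 promoters and 0.538 over all. It ranged from 0.385 at Msh4 to 1.08 at Smc1b, both of which were past the threshold. This range depends on the window. In 1 kb centred on the TSS, Msh4 stood at 0.642 and Smc1b at 0.705, beside medians of 0.645 over the 10 and 0.548 over all.

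Stag3 (ENSMUSG00000036928.8), the meiotic subunit of cohesin that takes the place of Stag1 and Stag2, lies on the plus strand of chromosome 5 from 138721468 to 138753621, with its TSS at the first of these. The deposited depth within 2 kb averaged 7.98 in the input, 2.44 in both Santa Cruz replicates, and 2.53 and 2.69 in the Abcam replicates. Scaled by the depth sums, this was 3.04 and 3.03 times the input with Santa Cruz and 2.62 and 2.69 times with Abcam. Both antibodies thus lay well above the input at this promoter, in each of their files. In fragments, 100 in the input, 35 with Santa Cruz and 38 with Abcam gave ratios of 3.04 (2.01 to 4.51) and 2.68 (1.79 to 3.93). Peaks of both antibodies covered the TSS, with 22 fragments in the best 600 bp in each library, 14.6-fold (Santa Cruz) and 11.9-fold (Abcam) over the number expected from the input, centred 182 and 232 bp downstream. They spanned chr5:138721001-138722300 with Santa Cruz and chr5:138721151-138722400 with Abcam.

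The TSS of Stag3 lies 235 bp from that of Gpc2, a glypican gene transcribed away from it on the other strand. The windows of these genes share 3766 bp, so the enrichment cannot be assigned to one of the pair. The window of Gpc2 held 99 input, 33 Santa Cruz and 38 Abcam fragments, for ratios of 2.90 and 2.71.

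Smc1b (ENSMUSG00000022432.6), the meiotic paralog of the cohesin ATPase Smc1a, lies on the minus strand of chromosome 15 with its TSS at 84962387. The deposited depth averaged 5.02 in the input, 1.57 and 1.42 in the Santa Cruz replicates and 1.87 and 1.95 in the Abcam replicates. Scaled by the depth sums, this was 3.12, 2.81, 3.08 and 3.10 times the input in the same order, so that the antibodies lay close together here. The fragments numbered 63 in the input, 21 with Santa Cruz (ratio 2.90, 1.68 to 4.81) and 28 with Abcam (3.13, 1.93 to 4.96). With Santa Cruz replicate 2 alone, Smc1b was no longer past the threshold. Peaks of both antibodies covered this TSS, at 16.8-fold with Santa Cruz (16 fragments) and 19.6-fold with Abcam (23 fragments), both centred 87 bp downstream. They spanned chr15:84961801-84963000 with Santa Cruz and chr15:84961501-84962800 with Abcam.

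Like Stag3, Smc1b shares its promoter. The TSS of Ribc2, a gene for a protein of ciliary microtubules, lies 142 bp away and points in the opposite direction, and its window held the same numbers of fragments as that of Smc1b in all 3 libraries. The windows of Smc1b and Ribc2 share 3859 bp, so the enrichment cannot be assigned to one of this pair either.

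Rec8 (ENSMUSG00000002324.7), the meiotic kleisin that closes the cohesin ring, had the lowest ratio of the 10 genes with both antibodies. Its promoter on chromosome 14 (TSS at 56236874) had an input depth of 7.34, almost that of Stag3, but a depth of 0.785 in both Santa Cruz replicates and 0.525 in both Abcam replicates. Scaled by the depth sums, the Santa Cruz replicates lay at 1.06 times the input and the Abcam replicates at 0.590 and 0.572 times. With 97 fragments in the input, 10 with Santa Cruz and 9 with Abcam, the ratios were 0.896 (0.417 to 1.72) and 0.654 (0.290 to 1.29). Both intervals include no enrichment, and their upper bounds lie below the lower bounds of Stag3, at 2.01 and 1.79. Against Smc1b, the interval of Rec8 overlapped with Santa Cruz and lay below with Abcam. The summed ratio of the 3 cohesin genes, 2.21 (1.66 to 2.90) in the Santa Cruz library and 2.03 (1.55 to 2.64) in the Abcam library, therefore rested on Stag3 and Smc1b.

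Spo11 (ENSMUSG00000005883.9) encodes the nuclease-like protein that makes the programmed double-strand breaks. At its TSS on chromosome 2 (172805350), the scaled depth was 2.03 and 1.93 times the input in the Santa Cruz replicates and 2.13 and 1.75 times in the Abcam replicates. The promoter had the fewest input fragments of the 10, with 49, and 11 with Santa Cruz and 15 with Abcam gave ratios of 1.95 (0.915 to 3.80) and 2.16 (1.12 to 3.91). Spo11 was past the threshold with neither antibody, yet an Abcam peak covered its TSS, with 12 fragments in 600 bp (10.1-fold over the number expected, centred 50 bp downstream). With a window of 1 kb on each side it was past the threshold with Abcam.

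Dmc1 and Spata22 act in the strand exchange that follows the break. Dmc1 (ENSMUSG00000022429.9), a recombinase of meiosis, has its TSS on the minus strand of chromosome 15 at 79435529 and lay at 1.85 and 1.56 times the input in the scaled depth of the Santa Cruz replicates and at 1.89 and 2.18 times in the Abcam replicates. From 64, 13 and 19 fragments, the ratios were 1.77 (0.892 to 3.24) in the Santa Cruz library and 2.09 (1.18 to 3.54) in the Abcam library, and no peak was called. Spata22 (ENSMUSG00000069825.5) works with a partner on single-stranded DNA to let the recombinases act, and had the highest ratio over both antibodies joined, 3.23. Its deposited depth on chromosome 11 (TSS at 73143243) averaged 5.40 in the input, 1.42 and 1.65 in the Santa Cruz replicates and 2.40 and 2.59 in the Abcam replicates.

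Scaled by the depth sums, Spata22 stood at 2.63 and 3.03 times the input with Santa Cruz and at 3.67 and 3.84 times with Abcam, so that the Abcam files were the higher at this promoter. The fragments were 71 in the input, 23 with Santa Cruz (ratio 2.82, 1.68 to 4.56) and 36 with Abcam (3.57, 2.32 to 5.41). Without Santa Cruz replicate 2, Spata22 was not past the threshold with that antibody. Its peaks covered the TSS and the GGCGGGAA next to it, at 12.4-fold with Santa Cruz, centred 93 bp upstream, and at 16.8-fold with Abcam, centred 57 bp downstream. They spanned chr11:73142651-73144150 and chr11:73142601-73144100.

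The promoters most like that of Spata22 in their pair of log2 ratios, by Euclidean distance among promoters with at least 20 input fragments, were Gm9857 (2.94 with Santa Cruz and 3.63 with Abcam), Piwil2 (2.73 and 3.46) and Pclo (2.90 and 3.43). This likeness rests on 2 values per promoter, each with counting error as wide as that of Spata22.

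Hormad1 and Hormad2 encode HORMA domain proteins of the meiotic chromosome axis, which mark chromosomes that have not yet paired. At Hormad1 (ENSMUSG00000028109.8, plus strand of chromosome 3, TSS at 95363600), the deposited depth averaged 4.23 in the input, 0.900 and 1.12 in the Santa Cruz replicates and 1.81 and 1.96 in the Abcam replicates. Scaled by the depth sums, these were 2.12 and 2.63 times the input with Santa Cruz and 3.53 and 3.70 times with Abcam. All 4 ChIP files lay above the input, and the Abcam files above the Santa Cruz files. In fragments, 56 in the input, 16 with Santa Cruz and 30 with Abcam gave ratios of 2.48 (1.33 to 4.39) and 3.78 (2.34 to 5.99), the latter being the highest Abcam ratio of the 10 genes. Peaks of both antibodies covered the TSS and the upstream motifs, at 13.5-fold with Santa Cruz and 18.5-fold with Abcam, the Abcam one centred on the TSS itself. They spanned chr3:95363101-95364250 and chr3:95362951-95364350.

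Hormad2 (ENSMUSG00000020419.4), on the minus strand of chromosome 11 (TSS at 4341108), had lower ratios than its paralog. Its scaled depth was 1.59 and 1.32 times the input in the Santa Cruz replicates and 0.992 and 1.07 times in the Abcam replicates. The 72, 12 and 10 fragments gave ratios of 1.45 (0.715 to 2.69) and 0.979 (0.450 to 1.91), and no peak was called. With Abcam, the upper bound of Hormad2 lay below the lower bound of Hormad1, while with Santa Cruz the intervals of the paralogs overlapped.

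Msh4 and Msh5 form the MutS dimer that stabilises crossover intermediates, and are known for meiotic crossing-over rather than for mismatch repair. At Msh4 (ENSMUSG00000005493.8, minus strand of chromosome 3, TSS at 153569102), the deposited depth averaged 5.59 in the input, 1.60 and 1.82 in the Santa Cruz replicates and 2.04 and 2.26 in the Abcam replicates. Scaled by the depth sums, it stood at 2.86 and 3.24 times the input with Santa Cruz and at 3.01 and 3.24 times with Abcam. The fragments, 75 in the input, 26 with Santa Cruz and 32 with Abcam, gave a ratio of 3.01 with both antibodies (1.85 to 4.76 and 1.92 to 4.61). The peaks covered the TSS but were centred further into the gene than those of the other 4 genes with Santa Cruz, 352 bp downstream (14.1-fold), and 202 bp downstream with Abcam (10.4-fold). They spanned chr3:153568201-153569300 and chr3:153568351-153569550.

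Msh5 (ENSMUSG00000007035.8), on the minus strand of chromosome 17 (TSS at 35183690), had lower ratios than its partner. Its scaled depth was 1.95 and 1.49 times the input in the Santa Cruz replicates and 1.22 and 1.29 times in the Abcam replicates. The promoter held 73, 16 and 15 fragments in the input, Santa Cruz and Abcam libraries. Its ratios were 1.91 (1.03 to 3.30) in the Santa Cruz library and 1.45 (0.772 to 2.55) in the Abcam library. No peak was called at the p cutoff of 1e-05. The sequence held GGCGGGAA on both sides of the TSS, and a relation between motif and binding was not tested. The intervals of the MutS partners overlapped with both antibodies.

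**Figure D2:**
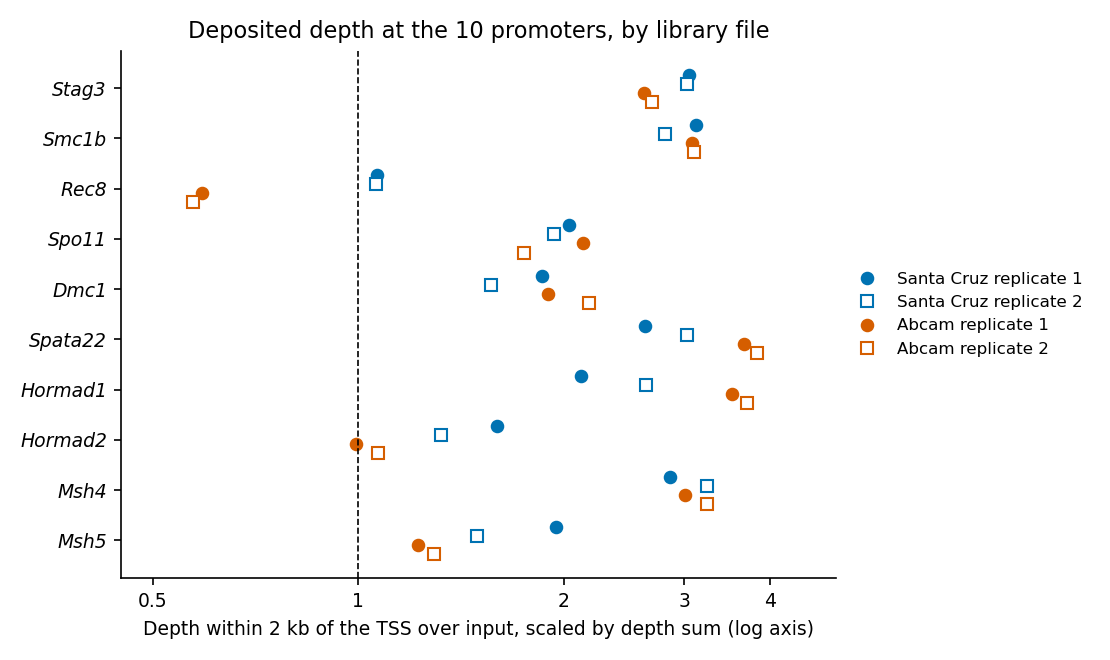
Deposited depth within 2 kb of the TSS over that of the input, each scaled by the depth sum of its file (horizontal log axis), with circles for replicate 1 and squares for replicate 2 of Santa Cruz (blue) and Abcam (orange). All 4 points lie to the right of the dashed line of no enrichment at 8 of the 10 genes, the exceptions being Rec8 (0.572 to 1.06) and Hormad2 (0.992 to 1.59), and replicates of an antibody are not independent libraries.

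In the order of the ratio over both antibodies joined, Spata22 (3.23), Hormad1 (3.20), Smc1b (3.03), Msh4 (3.01) and Stag3 (2.84) were followed by Spo11 (2.07), Dmc1 (1.95), Msh5 (1.65), Hormad2 (1.19) and Rec8 (0.762). Neighbours in this order did not differ beyond their intervals with either antibody. Peaks were called within 2 kb of the TSS at 5 of the 10 promoters with Santa Cruz (1.47% of all promoters) and at 6 with Abcam (2.47% of all promoters), in a Poisson test of 600 bp windows at p under 1e-05. The 5 genes with a Santa Cruz peak also had an Abcam peak, and Spo11 was the sixth with Abcam. All 11 peaks covered the TSS. The fold of a peak is over a rate that averages wide stretches of the input, and it is larger than the ratio to the input next to the TSS given below. At a p cutoff of 1e-04, or with the genome rate alone, Msh5 also had a peak with Santa Cruz (6 of 10) and Dmc1 and Hormad2 with Abcam (8 of 10). The share over all promoters rose as well, to 2.24% with Santa Cruz and 3.82% with Abcam at 1e-04. With the genome rate alone it was 4.44% and 6.2%. The peaks are the same contrast as the choice of the genes and show where the fragments lay.

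Most of the excess of fragments lay next to the TSS. Within 500 bp of it, the 10 promoters together had a ratio of 3.37 (2.70 to 4.19) in the Santa Cruz library and 3.76 (3.09 to 4.56) in the Abcam library. From 500 to 2000 bp on either side, the ratio was 1.36 (1.03 to 1.77) in the Santa Cruz library and 1.19 (0.907 to 1.53) in the Abcam library. The ratio next to the TSS was the higher one at all 10 genes with both antibodies, those not past the threshold included. The same count over all promoters is not given here. The intervals next to the TSS and in the flanks overlapped at some genes, among them Dmc1, Msh4 and Msh5 with both antibodies. In bins of 100 bp, the density over the 10 promoters was highest from 200 to 300 bp downstream of the TSS, where it reached 9.75 fragments per kb per 1000000 library fragments and promoter in the Santa Cruz library, 11.1 in the Abcam library and 2.02 in the input.

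**Figure D3:**
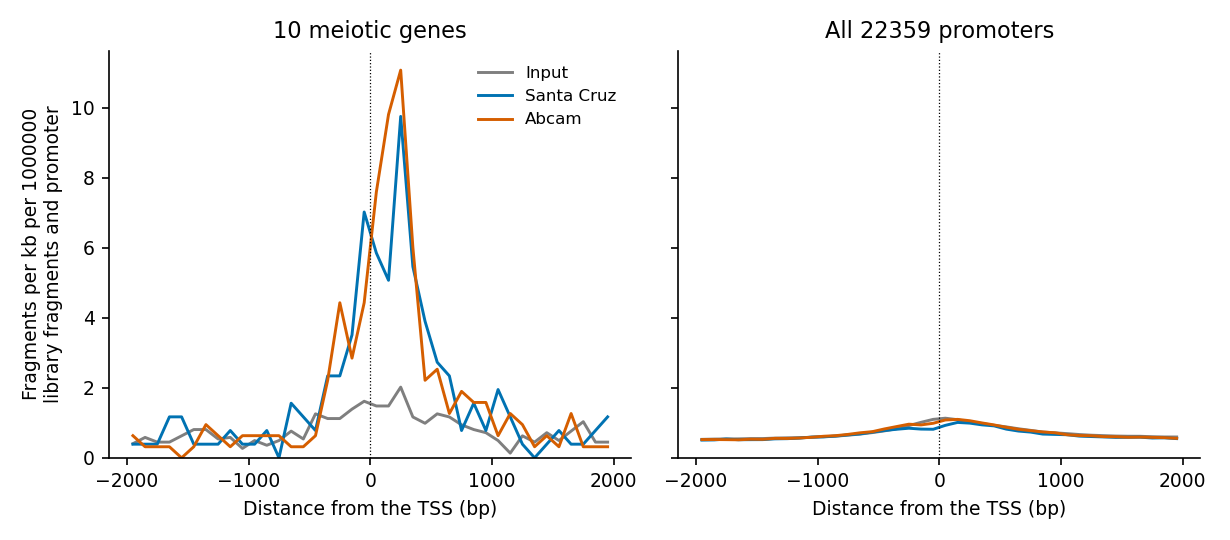
Fragments per kb per 1000000 library fragments and promoter in bins of 100 bp (vertical axis) against the distance from the TSS in the direction of the gene, for the input (grey), Santa Cruz (blue) and Abcam (orange), over the 10 meiotic genes on the left and all 22359 promoters on the right. Over the 10 genes both ChIP libraries rise above the input close to the TSS, to 11.1 with Abcam, whereas over all promoters the Abcam line stays close to the input and the Santa Cruz line lies below it just upstream of the TSS (0.816 against 1.10 in the last 100 bp).

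In their point values, the genes varied in how narrow this excess was. At Hormad1, the ratio within 500 bp was 5.53 with Santa Cruz and 7.69 with Abcam, while it was 0.511 and 1.24 in the flanks. Smc1b was alike, with 5.28 and 5.79 next to the TSS and 0.993 (0.256 to 2.78) and 1.01 (0.308 to 2.58) in the flanks. The intervals of both promoters include no enrichment beyond 500 bp. At Msh4, the flanks kept ratios of 2.82 (1.34 to 5.53) in the Santa Cruz library and 2.48 (1.21 to 4.77) in the Abcam library, close to the 3.20 and 3.52 next to the TSS. The intervals of Hormad1 and Smc1b overlapped those of Msh4 with both antibodies, next to the TSS and in the flanks. A difference in width between these genes is therefore not shown. Within 500 bp, Rec8 had 29 input, 5 Santa Cruz and 8 Abcam fragments. Its ratios there, 1.50 (0.453 to 3.92) and 1.94 (0.768 to 4.36), have intervals that include 1. In the flanks of Rec8, 68 input fragments stood against 5 with Santa Cruz (0.639, 0.201 to 1.57) and 1 with Abcam (0.104, 0.00259 to 0.597), so that the Abcam interval lay below the input. The flanks of Hormad2 held 34 input fragments, 4 with Santa Cruz (1.02, 0.264 to 2.87) and 0 with Abcam (upper bound 0.808). Spo11 had a ratio of 4.70 (2.07 to 10.3) next to the TSS with Abcam and of 2.41 (0.701 to 6.75) with Santa Cruz.

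**Figure D4:**
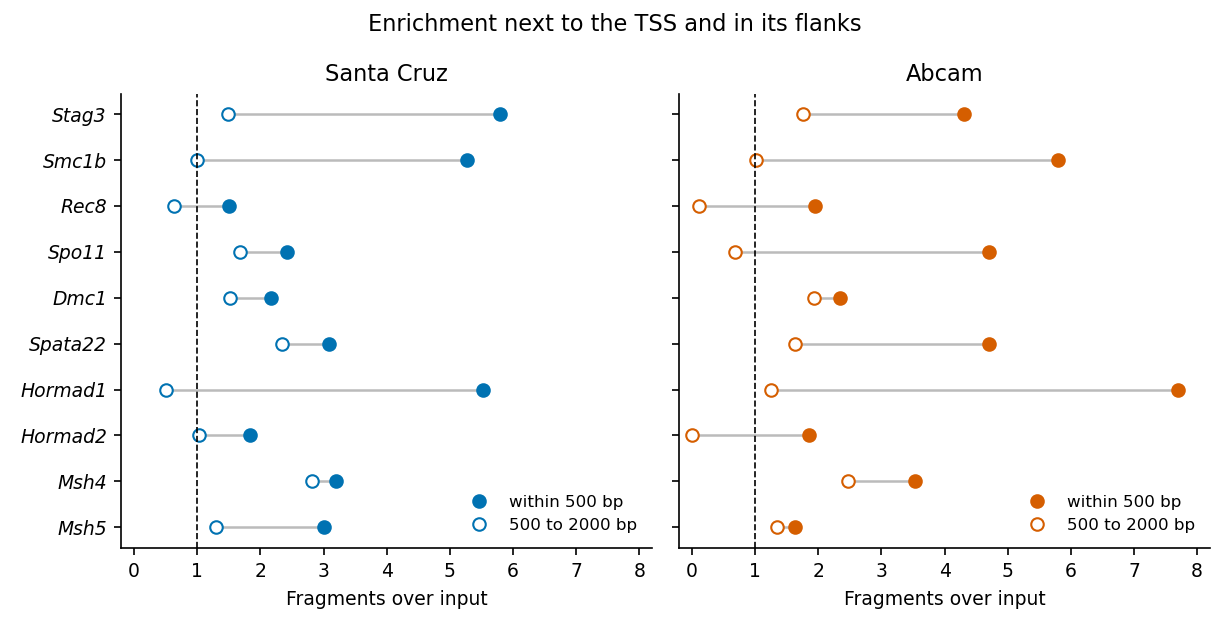
Fragments over input within 500 bp of the TSS (filled points) and from 500 to 2000 bp (open points) for each gene, with Santa Cruz on the left and Abcam on the right. The filled point lies to the right of the open one at all 10 genes in both panels, for example at 7.69 against 1.24 for Hormad1 with Abcam and at 3.20 against 2.82 for Msh4 with Santa Cruz.

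The antibodies were then compared directly, a contrast that the choice of the genes did not use. The ratio was higher with Abcam at 5 of the 10 genes and with Santa Cruz at the other 5. The widest difference upwards was at Hormad1, at 1.52 times the Santa Cruz level with Abcam (0.803 to 2.99), and the widest downwards at Hormad2, at 0.676 times (0.262 to 1.71). At Msh4 the libraries stood at 0.998 of each other (0.576 to 1.74). None of the 10 genes differed between the antibodies in a two-sided exact binomial test adjusted after Benjamini and Hochberg over all promoters (adjusted p = 1 at each), where 0.00894% of all promoters did. Without adjustment, 0 of the 10 had a p under 0.05. These intervals still allow differences of more than 1.5 times in either direction at most of the genes, so the antibodies are not shown to be alike gene by gene.

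The cohesin counterparts that serve dividing cells were read in the same libraries. Of these, Stag1 (0.448 with Santa Cruz and 1.09 with Abcam), Stag2 (1.01 and 0.820), Smc1a (0.644 and 1.04) and Rad21 (0.621 and 0.126) were past the threshold with neither antibody. Few fragments lie behind these ratios, with 4 Santa Cruz and 1 Abcam at Rad21 (Abcam interval, 0.00313 to 0.731). Smc1a had 4 and 8, Stag2 had 5 with each antibody, and Stag1 had 5 and 15. The intervals of Smc1b and Smc1a overlapped narrowly with Santa Cruz (1.68 to 4.81 against 0.169 to 1.75). With Abcam they also overlapped (1.93 to 4.96 against 0.429 to 2.21). Those of Stag3 lay above those of Stag1 with Santa Cruz (2.01 to 4.51 against 0.142 to 1.08). With Abcam the intervals of Stag3 and Stag1 overlapped (1.79 to 3.93 against 0.588 to 1.89). Stag2 overlapped Stag3 with Santa Cruz (0.312 to 2.55) and with Abcam (0.253 to 2.07). Rec8 and Rad21 overlapped with both antibodies. Stag3 was chosen with its ratios to the input already known, so its separation from Stag1 carries no test.

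Over 10 genes of cohesin in dividing cells, 0 were past the threshold with either antibody, and the median ratio was 0.705 with Santa Cruz and 0.992 with Abcam. At the shares over all promoters (0.635% with Santa Cruz and 1.09% with Abcam), most lists of this size would hold 0, so a count of 0 says nothing particular about these genes. Over 21 genes of recombination and mismatch repair in dividing cells, 0 were past it with Santa Cruz and 1 with Abcam, and the medians were 0.915 and 1.17. The gene past it was Rad50, a subunit of the complex that processes broken ends, with 32 Abcam fragments against 60 in the input (ratio 3.76, 2.37 to 5.87). Over 24 further genes of meiotic recombination, the medians were 1.35 and 1.39, and 2 were past the threshold with Santa Cruz and 3 with Abcam. Rad21l, another meiotic kleisin and so a paralog of Rec8, had ratios of 5.05 (2.66 to 9.31) and 3.64 (1.86 to 6.86) from 18 and 16 fragments against 31. Prr19, a crossover factor, had 3.20 and 3.15 from 28 and 34 fragments against 76, and Hsf2bp, which binds the recombination mediator Brca2, had 1.55 (0.832 to 2.71) in the Santa Cruz library and 3.27 (2.18 to 4.84) in the Abcam library. With Santa Cruz, the ratio of Rad21l was above that of each of the 10 genes, though its interval overlapped that of Stag3 (2.01 to 4.51), and it lay clear of the interval of Rec8 (0.417 to 1.72).

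**Figure D5:**
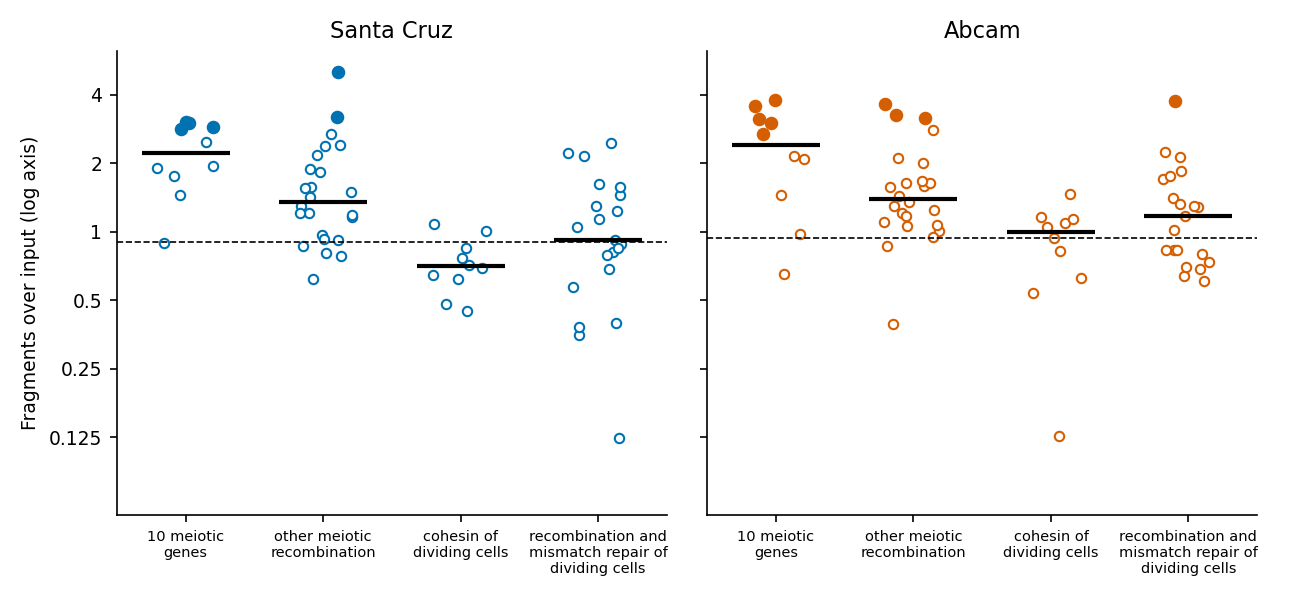
Fragments over input (vertical log axis) for the 10 meiotic genes and 3 other gene lists, with Santa Cruz on the left and Abcam on the right. There is 1 point per gene, filled where past the threshold. A bar marks the median of each list and a dashed line that of all promoters with input fragments. The bar of the 10 genes lies at 2.22 and 2.42, that of the other meiotic recombination genes at 1.35 and 1.39, and those of the genes of dividing cells at 0.705 to 1.17.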

How the data were processed

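The authors deposited a coverage signal for each library, in whole numbers, of reads lengthened to 300 bp (build mm9, NCBIM37), not scaled and not divided by the input. The submitters' processing notes name Bowtie, and filters on reads are not given in the sources used here. Fragments were recovered from rises and falls of this signal 300 bp apart (tolerance 1 base), a step tested on simulated data. Replicates of an antibody shared most fragments (88.0% of Santa Cruz replicate 1 and 88.2% of Abcam replicate 1 were found in replicate 2), at a shift of 1 or 15 bases, so they were joined with 1 fragment per position, to 2563579 (Santa Cruz), 3160638 (Abcam) and 22281796 (input) fragments.

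Promoters were ±2 kb around the TSS with the most protein-coding transcripts in the GENCODE annotation of each gene (on a tie, the more upstream). Intervals are exact Clopper-Pearson 95% intervals and cover counting error only. Tests were exact binomial tests over all 22359 promoters. They compare libraries, not conditions. Peaks were called with a Poisson test in 600 bp windows (step 50 bp, local rate from the genome and from 5 and 10 kb of the input, p cutoff 1e-05). Of 25 other meiotic recombination genes listed, Ankrd31 was not matched and was not analysed here. The members and the lists were chosen with earlier results of these data known. All members were named, with their cohesin counterparts (other counterparts are not reported here), neighbours within 2 kb, genes of the other lists past the threshold, and the 3 promoters nearest to the member with the highest ratio. Fragments were matched with numba 0.67.0, tests run with scipy 1.17.1, tables made with pandas 2.3.3 and numpy 2.4.6 and figures drawn with matplotlib 3.10.9, all under Python 3.11.15.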

Additional observations from a re-analysis of the deposited data

How the results depend on the processing

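The size of the window moved the values most. With windows of 1, 3 and 10 kb on each side, the summed ratio of the 10 genes was 2.74, 1.87 and 1.21 with Santa Cruz and 2.96, 1.94 and 1.32 with Abcam. With 3 kb, 2 of the 10 genes (Stag3 and Msh4) were past the threshold with Santa Cruz (121 of all promoters), and with 10 kb 0 with Santa Cruz (87 of all promoters, against 142) and 3 with Abcam (Spata22, Hormad1 and Msh4, and 182 of all promoters, against 244). Wider windows add flanks, where the ratio was lower. With each replicate left out, the sums ran from 2.19 to 2.21 (Santa Cruz) and from 2.18 to 2.28 (Abcam), and the counts were 3 (Santa Cruz, losing Smc1b without replicate 1 and Spata22 without replicate 2, with 120 and 110 of all promoters) and 5 (Abcam, with 218 and 204). Counting all fragments as deposited, where shared fragments enter again, put 384 and 620 promoters past the threshold in place of 142 and 244, and 5 and 6 of the 10 genes. Genes with a peak numbered 6 (Santa Cruz) and 8 (Abcam) at p 1e-04 or with the genome rate alone, against 5 and 6 at 1e-05 and at 1e-07. The shares over all promoters were 2.24% and 3.82% at 1e-04 and 4.44% and 6.2% with the genome rate. They were 1.47% and 2.47% at 1e-05 and 0.698% and 1.31% at 1e-07. An E-box was found at 3 and either motif at 5 of the 10 promoters in 1 kb, against 1 and 3 in 300 bp. Over all promoters, an E-box was found at 16.8% in 1 kb and 7.70% in 300 bp, and either motif at 22.4% and 10.2%. The difference between the antibodies had a count of 0 of the 10 genes under every alternative run. Of 180 values at single genes under these alternatives, 12 moved outside their main interval, 11 of them with the window of 10 kb. No paired analysis was possible because the replicates of each antibody hold the same fragments and are 1 library. Depth limited the single genes, with 9 to 38 ChIP fragments per promoter.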

Other observations

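Few fragments at these promoters lay on the exact position of a fragment in another library. Each library held 1 fragment per position, so stacking within a library could not show. Of 183 Santa Cruz fragments at the 10 promoters, 4 lay on a position that also held an input fragment, and of 232 Abcam fragments 11 did. At 1 position, at Stag3, a fragment was present with both antibodies. Sharing of an exact base is rare with so few fragments per window. These counts therefore do not show whether the antibodies bound at the same or at different places. Peaks of both antibodies covered the same TSS at Stag3, Smc1b, Spata22, Hormad1 and Msh4. The number of input fragments at the 10 promoters (49 to 100, median 71.5) was close to the median of 69 over all promoters.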
